A study of Mus musculus with 8 samples.

Results

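The Hox genes and 6 transcription factor genes that distinguish fat depots were examined in the groin fat pad (inguinal white adipose tissue, iWAT), a subcutaneous depot, of male mice fed a high-fat diet. The members were the protein-coding rows of the expression table named Hoxa, Hoxb, Hoxc or Hoxd with a number, together with Tbx15, Shox2, Emx2, En1, Pitx1 and Tbx5, which came to 46 of 54532 rows. Of these, 40 rows held 39 Hox genes, since Hoxd4 was listed as 2 gene models. There were 11 rows in HoxA, 10 in HoxB, 9 in HoxC and 10 in HoxD. Mice lacking the zinc-finger transcription factor KLF10 in adipocytes (KLF10AKO, n = 4 libraries) were set against wild type (WT, n = 4 libraries). Both groups shared sex, diet and tissue, and the study concerned a loop between FOXO1 and KLF10 in lipolysis. The labels name neither the Cre driver nor the age of the mice, and give no animal for a library, so p-values here rest on spread among libraries, which may be technical.

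Hox genes encode homeodomain transcription factors and lie in 4 clusters in mammals. Along each cluster they are numbered by paralogue group, the low numbers being used in anterior parts of the embryo and the high numbers in posterior parts and distal limbs. Adult connective tissue and adipose cells keep much of the code of the site where they arose, so the set of Hox genes in a fat pad reflects its position in the body. Tbx15, Shox2 and En1 are known as marks of subcutaneous fat or of the body wall, and Pitx1 and Tbx5 as marks of the hindlimb and forelimb.

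Recovered reads ran from 15900731 to 17396282 per library in KLF10AKO and from 15537863 to 17499132 in WT. Klf10 itself was at 9.39, 9.68, 9.75 and 9.59 FPKM (fragments per kilobase of gene, scaled by library size) in KLF10AKO replicates 1 to 4, against 16.7, 18.2, 16.7 and 21.1 FPKM in WT replicates 1 to 4. It was lower in KLF10AKO by limma on the authors' scale (log2 change -0.88, adjusted p = 8.96e-06), and at 0.69 when libraries were scaled to adipocyte markers. The groups also differed in markers of cell types. All 14 adipocyte markers were lower in KLF10AKO with a median log2 change of -1.73, and 10 of 15 fibroblast and adipose progenitor markers were lower and 4 higher (median -0.95). Endothelial markers were lower in 7 of 8 (median -0.96), and smooth muscle and pericyte markers in 5 of 6 tested (median -0.97). These marker counts are on the authors' scale, where 34.9% of all genes tested were lower and 39.4% higher. With adipocyte scaling the median was 0.61 for fibroblast and progenitor, 0.64 for endothelial and 0.54 for smooth muscle and pericyte markers. All 10 B cell markers were higher (median 6.78), their summed level running from 2020 to 2856 FPKM in KLF10AKO and from 131 to 261 FPKM in WT, as were all 10 T cell markers (median 5.48) and all 9 tested markers of lymph node stroma (median 2.81). The T cell markers summed to 341 to 504 FPKM in KLF10AKO and 2.84 to 4.47 FPKM in WT. Of 12 lymph node stroma rows, 5 had 0 reads in WT. Some markers of these 2 lists thus reached the filter through KLF10AKO alone, so the direction counts of both lists carry no weight. Skeletal muscle markers (11 of 12 tested higher) divided the KLF10AKO libraries. Their sum over 14 genes was 5832, 4408, 10279 and 35.4 FPKM in KLF10AKO replicates 1 to 4, against 166 to 219 FPKM in WT. Myf6, the tested myogenic factor, was at 0 in KLF10AKO replicate 4. Satellite cell and myogenic factor markers together were at most at 0.0759 FPKM in WT. Myf6 thus reached the filter through KLF10AKO alone, and no direction is read from it. Of the remaining lists, macrophage markers were lower in 2 and higher in 1 of 5. The 5 tested trophoblast markers reached the filter through WT alone, all 7 rows together being at most at 0.0520 FPKM in KLF10AKO. The single tested epithelial marker (log2 change 1.81) reached it through KLF10AKO alone, all 6 rows together being at most at 2.36 FPKM there. No direction is read from the trophoblast and epithelial markers.

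Most Hox genes measured in iWAT were lower in KLF10AKO than in WT on the authors' scale, a direction that scaling to adipocyte markers turned. Of the 46 rows, 27 had a mean level of at least 0.5 FPKM over the 8 libraries and were tested, and the other 19 were not. On the authors' scale 22 of the 27 were lower and 0 were higher (limma on log2(FPKM + 0.5), adjusted p under 0.05), the background over 16012 genes being 34.9% lower and 39.4% higher; scaled to adipocyte markers, 0 were lower and 17 higher, against a background of 86.8% higher. The 5 members that did not pass were Hoxa3, Hoxc10, Hoxd9, Tbx15 and En1. All 4 KLF10AKO libraries lay below all 4 WT libraries in 20 of the 27 (background 33.0%) and above them in 0 (background 36.2%). The median log2 change of the tested members was -0.91, against 0.05 for all genes tested. In every scaling and alternative run the members' median minus the median of all genes lay between -1.07 and -0.77. Scaling a library by a single factor moves members and all genes nearly alike, so the marker scalings could hardly change this difference. Adipocyte scaling moved the median of all genes to 1.52 and gave 25 of the 27 members the opposite sign, while scaling to fibroblast and progenitor markers left 15 lower and 1 higher (background 19.6% lower). With KLF10AKO replicate 4, poor in muscle transcripts, alone against WT and assumed to vary like WT, 20 members were lower and 0 higher (background 29.7% lower), and without it 21 were lower and 1, Tbx15, was higher. Over all genes, 53.0% of the calls were higher on the authors' scale, against 63.4% with TPM, 41.2% with quantile normalization, 98.4% with adipocyte scaling, 74.3% with fibroblast and progenitor scaling and 62.7% with voom on recovered reads. In bulk tissue, fewer cells of a type and less RNA per cell cannot be told apart, and the part of the marker changes above in the Hox values was not tested.

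Read by paralogue group, the middle of the clusters held most of the Hox mRNA. All 14 tested rows of groups 4 to 8 were lower on the authors' scale (median log2 change -0.97; background 34.9% of all genes), as were 3 of 4 tested rows of groups 1 to 3 (median -0.63) and 4 of 6 of groups 9 and 10 (median -0.76), while the adipocyte scaling put each of these medians above 0. Groups 4 to 8 made up 65.9% to 72.9% of the summed Hox level in KLF10AKO and 72.2% to 74.3% in WT. No row of groups 11 to 13 reached the filter. By cluster the median log2 change was -0.96 in HoxA, -0.86 in HoxB, -1.06 in HoxC and -0.35 in HoxD, the last from 2 tested genes. Differences between clusters were not tested.

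**Figure D1:**
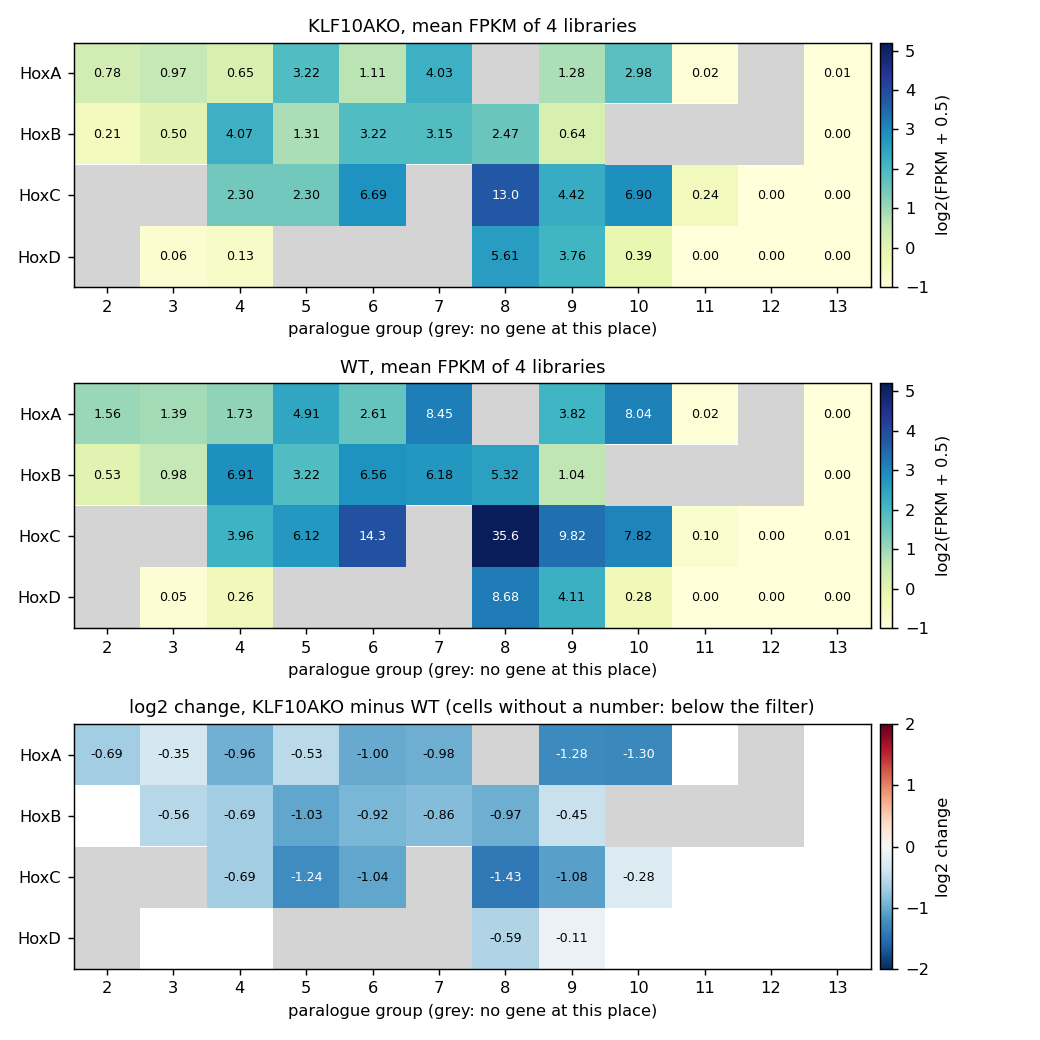
Mean level of each Hox gene by cluster (rows) for paralogue groups 2 to 13 (columns) in KLF10AKO and in WT, in FPKM with the colour on a log2(FPKM + 0.5) scale, and the log2 change below. Numbers in the bottom panel belong to the tested Hox rows of these groups, and none is above 0 on the authors' scale (adipocyte scaling puts all of them above 0); Hoxd4 is the sum of its 2 rows.

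The HoxC cluster (mm10 chromosome 15, 102921103 to 103036852, 116 kb) held the most abundant members. On the authors' scale, used for the changes below, 5 of its 6 tested genes were lower (background 34.9%). The cluster's median was 0.46 with adipocyte scaling. Hoxc8, a gene of the trunk code, had 13.8, 12.1, 15.1 and 11 FPKM in KLF10AKO replicates 1 to 4, against 34.2, 36.5, 38.6 and 33.1 FPKM in WT replicates 1 to 4. Every KLF10AKO library lay below every WT library, and Hoxc8 was the highest member in both groups. Its log2 change was -1.43 (95% interval -1.65 to -1.20, adjusted p = 1.9e-06). Hoxc6 had 7.62, 5.95, 7.10 and 6.09 FPKM in KLF10AKO, against 15.1, 13.6, 14 and 14.3 FPKM in WT. Hoxc9, a thoracic to lumbar gene, had 4.38, 4.08, 5.63 and 3.59 FPKM in KLF10AKO, against 10.2, 9.73, 9.71 and 9.61 FPKM in WT. For both genes the groups did not overlap, with log2 changes of -1.04 for Hoxc6 and -1.08 for Hoxc9. Hoxc5 averaged 2.30 ± 0.272 FPKM in KLF10AKO and 6.12 ± 0.541 FPKM in WT (SD, n = 4 each), a log2 change of -1.24. Hoxc4 was lower with overlapping groups, at 1.70 to 3.02 FPKM in KLF10AKO and 3.01 to 4.85 FPKM in WT (log2 change -0.69, adjusted p = 0.00907).

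Hoxc10, a lumbosacral gene known in mice to restrain browning of subcutaneous fat, did not pass the test on the authors' scale. The 5 other tested HoxC genes did (background 34.9% lower). Scaled to adipocyte markers, Hoxc10 was higher in KLF10AKO (log2 change 1.25, limma adjusted p = 0.000679). As deposited, Hoxc10 had 7.74, 6.65, 10.2 and 3.0 FPKM in KLF10AKO replicates 1 to 4, against 8.03, 7.06, 8.10 and 8.10 FPKM in WT replicates 1 to 4. KLF10AKO replicate 1 lay within the WT range, replicate 3 above it and replicate 2 just below it, while replicate 4 was the lowest library of all. Over all libraries the log2 change was -0.28 and missed the threshold (95% interval -0.94 to 0.39, adjusted p = 0.411; 0.000679 to 0.83 over the alternatives). Without KLF10AKO replicate 4 it was 0.05, and with replicate 4 alone against WT it was -1.25 (adjusted p = 0.00113, assuming that it varies like WT). Replicate 4 was also the KLF10AKO library with the lowest muscle marker sum, 35.4 FPKM, and replicate 3 had both the highest muscle sum and the most Hoxc10. The adipocyte marker sum was likewise lowest in replicate 4 (5374 FPKM) and highest in replicate 3 (6759 FPKM). The B cell sum was highest in replicate 4 (2856 FPKM) and lowest in replicate 3 (2020 FPKM). Whether muscle RNA or any other of these took part in the Hoxc10 value was not tested. Hoxc11, next in the cluster and under the filter, had 13, 3, 19 and 1 reads in KLF10AKO and 3, 4, 1 and 4 reads in WT, again most in replicates 1 and 3.

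**Figure D2:**
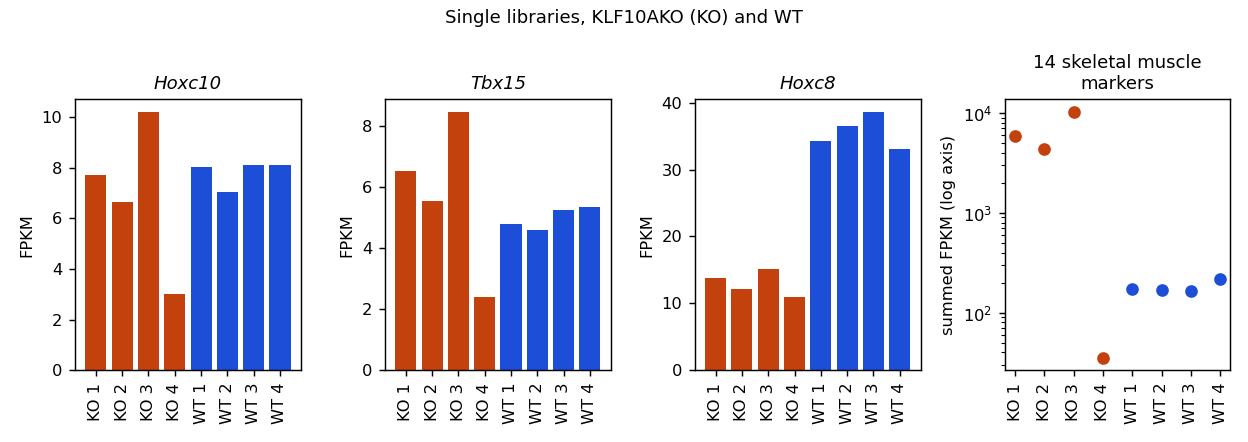
FPKM of Hoxc10, Tbx15 and Hoxc8 in each library (bars) and the summed FPKM of 14 skeletal muscle markers on a log axis (points). Hoxc10 and Tbx15 are lowest in KLF10AKO replicate 4, the library whose muscle sum is 35.4 FPKM, while Hoxc8 lies between 11 and 15.1 FPKM in all 4 KLF10AKO libraries on the authors' scale, against 33.1 to 38.6 FPKM in WT.

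The group 10 genes show how far paralogues can be told apart in reads. The windows below are bases 121 to 180 of the 180-base homeobox, the part that encodes the DNA-contacting helix, taken from GENCODE M21 transcripts; capitals mark the codons of the conserved tryptophan, phenylalanine, glutamine and asparagine.
Hoxa10: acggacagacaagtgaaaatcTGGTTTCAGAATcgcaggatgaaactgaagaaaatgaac
Hoxc10: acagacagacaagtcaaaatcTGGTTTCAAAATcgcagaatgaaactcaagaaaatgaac
Hoxd10: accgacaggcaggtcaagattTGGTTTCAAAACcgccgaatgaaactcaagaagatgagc
Over the whole homeobox, Hoxa10 and Hoxc10 were identical at 80.6% of bases, Hoxa10 and Hoxd10 at 78.9%, and Hoxc10 and Hoxd10 at 82.8%. The longest identical run within this group was 16 bases, and over all pairs of the 39 Hox genes it was 52 bases, between Hoxa6 and Hoxb4. Fragments were selected at 370 to 420 bp, and how long each read was is not stated. The 3 genes gave different results. Hoxa10 was lower on the authors' scale, Hoxc10 was as described above, and Hoxd10 was under the filter with 12, 17, 14 and 10 reads in KLF10AKO and 3, 10, 10 and 8 reads in WT.

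The HoxA cluster (chromosome 6, 52155590 to 52260880, 105 kb) had 9 tested genes, of which 8 were lower on the authors' scale (background 34.9%), though the cluster's median was 0.25 with adipocyte scaling. Hoxa11, with 3 reads in each group, and Hoxa13, with 1 read in KLF10AKO and 0 in WT, were under the filter. Hoxa10, which patterns the lumbar region and the urogenital tract, had 3.19, 2.59, 2.95 and 3.19 FPKM in KLF10AKO, against 8.78, 8.20, 7.46 and 7.70 FPKM in WT. Hoxa9, known for its part in blood stem cells and leukaemia, had 1.30, 1.30, 1.31 and 1.21 FPKM in KLF10AKO, against 3.71, 3.62, 3.82 and 4.14 FPKM in WT. Neither gene overlapped between groups, and the log2 change was -1.30 for Hoxa10 and -1.28 for Hoxa9 (adjusted p = 1.05e-06 and 5.08e-07). In KLF10AKO replicate 4 Hoxa10 was at 109% and Hoxa9 at 92.4% of the mean of replicates 1 to 3; replicate 4 is the library in which muscle markers were lowest. Hoxa7 averaged 4.03 ± 0.359 FPKM in KLF10AKO and 8.45 ± 1.16 FPKM in WT (SD, n = 4 each; log2 change -0.98). Hoxa5, which in mice affects lung and adipose development, was also lower, at 3.48, 3.03, 3.11 and 3.23 FPKM in KLF10AKO, against 4.14, 5.80, 4.58 and 5.12 FPKM in WT (log2 change -0.53). Hoxa6, Hoxa4 and Hoxa2, all below 3 FPKM, were lower without overlap, with log2 changes from -1.0 to -0.69. Hoxa3 missed the threshold by little, at 0.857 to 1.03 FPKM in KLF10AKO and 0.909 to 1.60 FPKM in WT (log2 change -0.35, adjusted p = 0.0511), and without WT replicate 3 it passed (log2 change -0.48, adjusted p = 0.00287; 0.000772 to 0.947 over the alternatives).

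All 7 tested genes of the HoxB cluster (chromosome 11, 96194316 to 96368256, 174 kb) were lower on the authors' scale (background 34.9%), and all 7 were above 0 when scaled to adipocyte markers. Hoxb4, a regulator of blood stem cells, was the most abundant, at 4.25, 4.15, 3.83 and 4.04 FPKM in KLF10AKO, against 6.71, 5.98, 6.70 and 8.28 FPKM in WT (log2 change -0.69). Hoxb5 was at 1.17, 1.66, 1.19 and 1.22 FPKM in KLF10AKO, against 2.57, 3.60, 2.97 and 3.74 FPKM in WT (log2 change -1.03). In Hoxb6, Hoxb7 and Hoxb8 the groups did not overlap. Hoxb7 averaged 3.15 ± 0.0665 FPKM in KLF10AKO and 6.18 ± 0.870 FPKM in WT, Hoxb6 3.215 ± 0.205 FPKM in KLF10AKO and 6.56 ± 0.735 FPKM in WT, and Hoxb8 2.47 ± 0.445 FPKM in KLF10AKO and 5.32 ± 0.753 FPKM in WT (SD, n = 4 each). Their log2 changes were -0.86 for Hoxb7, -0.92 for Hoxb6 and -0.97 for Hoxb8. Hoxb9 passed under few settings. It had 0.779, 0.368, 0.857 and 0.572 FPKM in KLF10AKO, against 0.832, 1.14, 1.22 and 0.979 FPKM in WT, with overlap. Its log2 change was -0.45 (adjusted p = 0.0364), and it passed in 7 of 18 alternatives, in 1 of them (adipocyte scaling) with the opposite sign (adjusted p 0.00277 to 0.43). In Hoxb3 (log2 change -0.56), 52.9% of the exonic bases lie opposite the antisense gene Hoxb3os. The strand setting of the counting is not given in the sources used here, so reads of such pairs cannot be told apart.

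The HoxD cluster (chromosome 2, 74668310 to 74765142, 96.8 kb) had 2 tested genes in adjacent places. Hoxd8 had 5.11, 6.28, 6.45 and 4.61 FPKM in KLF10AKO, against 8.54, 9.66, 8.89 and 7.64 FPKM in WT, and was lower on the authors' scale without overlap (log2 change -0.59, adjusted p = 0.00126). Hoxd9, which shapes the lumbar region and the limb, had 3.48, 3.80, 4.03 and 3.71 FPKM in KLF10AKO, against 4.29, 4.45, 3.52 and 4.18 FPKM in WT. The groups overlapped through WT replicate 3, and the log2 change of -0.11 missed the threshold (95% interval -0.30 to 0.07, adjusted p = 0.235; 1.6e-06 to 0.581 over the alternatives). Hoxd9 was higher in KLF10AKO when libraries were scaled to fibroblast and progenitor markers, by 0.32 (adjusted p = 0.0137), a scaling that moved the median of all genes to 0.47. It was not low in KLF10AKO replicate 4, which stood at 98.5% of the mean of replicates 1 to 3.

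**Figure D3:**
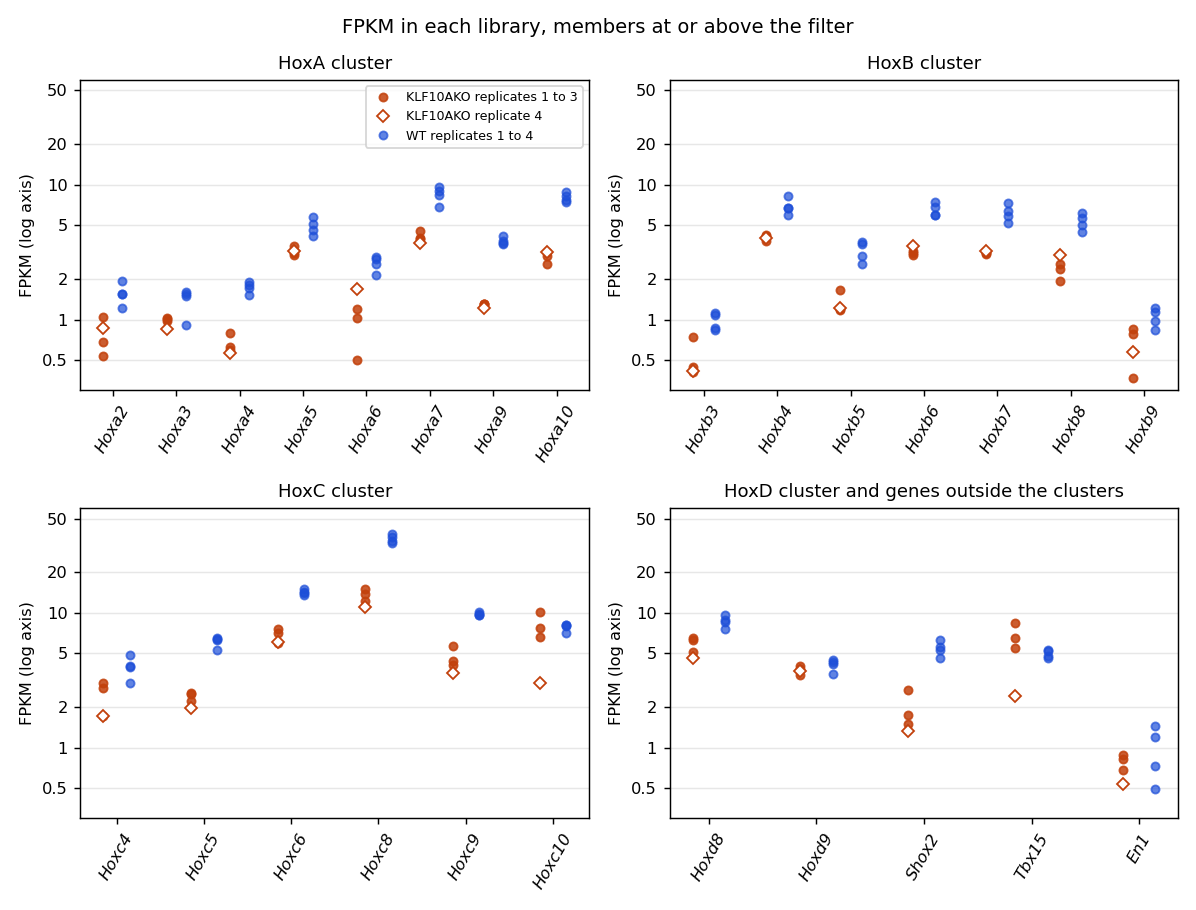
FPKM on a log axis in every library for 26 of the 27 members at or above the filter, with KLF10AKO left of WT and KLF10AKO replicate 4 as an open diamond. The 2 groups are apart in 19 of the members plotted, all lower in KLF10AKO on the authors' scale used here. Over all 16012 genes tested, 33.0% were apart with KLF10AKO lower and 36.2% with KLF10AKO higher. Of the 19, 18 are Hox genes, which all turn with adipocyte scaling. Replicate 4 is lowest by the widest margin in Hoxc10 and Tbx15.

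Among the 19 untested rows the posterior ends were close to silent. The 9 rows of groups 11 to 13 held 40 reads in KLF10AKO and 16 in WT, and 5 of them (Hoxb13, Hoxc12, Hoxd11, Hoxd12 and Hoxd13) had 0 reads in all 8 libraries. For these 5, 3 reads over the 4 libraries of a group would have been 0.00967 to 0.0395 FPKM in KLF10AKO and 0.0117 to 0.0476 FPKM in WT. The anterior HoxD genes were low too: Hoxd1, Hoxd3 and both Hoxd4 rows averaged at most 0.122 FPKM in KLF10AKO and 0.242 FPKM in WT. Hoxb2 was the untested row whose groups did not overlap, with 12, 19, 17 and 7 reads in KLF10AKO, against 26, 23, 25 and 38 reads in WT. A limb mark was nearly absent: Pitx1, the hindlimb factor, had 2 reads in KLF10AKO and 7 in WT. Tbx5, the forelimb factor, was at 0.203 to 0.400 FPKM in KLF10AKO and 0.296 to 0.641 FPKM in WT. Emx2, a homeobox gene of the urogenital tract and forebrain, was at 0.246 to 0.643 FPKM in KLF10AKO and 0.408 to 0.732 FPKM in WT.

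Outside the clusters, Shox2, a short stature homeobox gene of proximal limb and subcutaneous fat, had 1.75, 1.50, 2.68 and 1.32 FPKM in KLF10AKO, against 5.58, 5.32, 6.24 and 4.63 FPKM in WT. No library of the groups overlapped, and the log2 change was -1.39 (95% interval -1.78 to -1.0, adjusted p = 7.45e-05), close to 0 with adipocyte scaling (-0.02). Tbx15, a T-box gene of subcutaneous fat that in mice also acts in glycolytic muscle fibres, had 6.52, 5.53, 8.43 and 2.40 FPKM in KLF10AKO, against 4.77, 4.59, 5.25 and 5.34 FPKM in WT. KLF10AKO replicates 1 to 3 lay above all WT libraries and replicate 4 below them. Over all libraries the log2 change was 0.07 (95% interval -0.60 to 0.75, adjusted p = 0.838; 0.000169 to 0.952 over the alternatives). It was 0.40 without replicate 4 (adjusted p = 0.0231) and -0.92 with replicate 4 alone against WT (adjusted p = 0.00338, a test in which this single library is assumed to vary like WT). Across the KLF10AKO libraries the muscle marker sum had the same order as Tbx15. The adipocyte marker sum (6110, 6038, 6759 and 5374 FPKM in replicates 1 to 4) and the endothelial sum had that order too. The B cell sum (2393, 2534, 2020 and 2856 FPKM) had the reverse order. The part of any of these in the Tbx15 value was not tested. En1, an engrailed gene of the body wall dermis, was at 0.540 to 0.883 FPKM in KLF10AKO and 0.493 to 1.45 FPKM in WT, and missed the threshold (log2 change -0.21, adjusted p = 0.403).

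**Figure D4:**
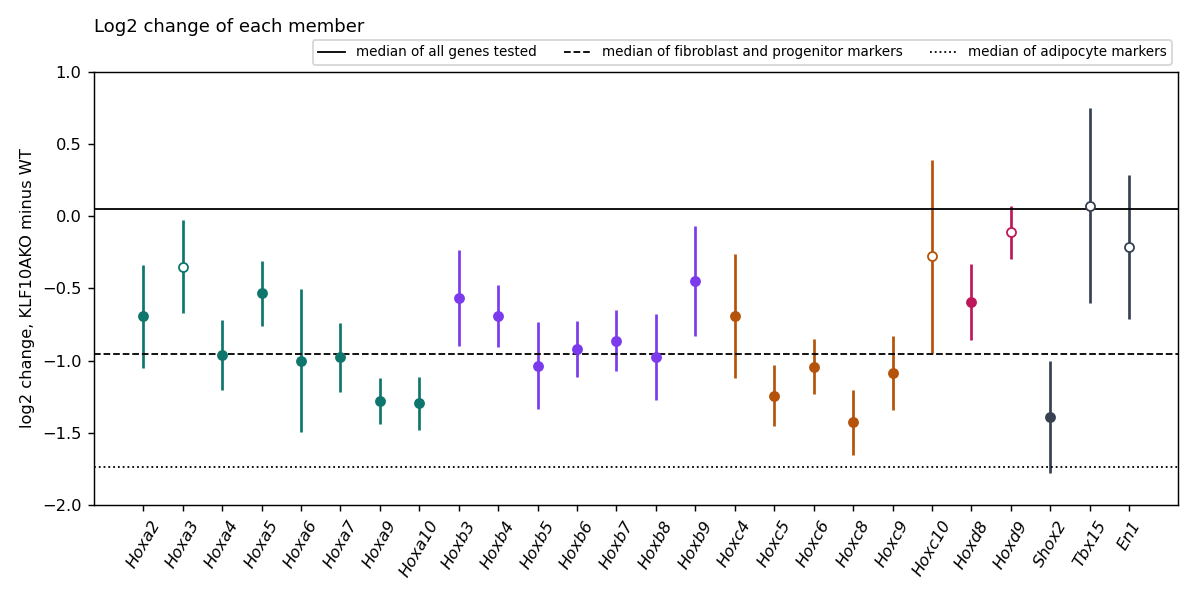
Log2 change of 26 of the 27 tested members, KLF10AKO minus WT, with 95% intervals from limma; filled points passed an adjusted p of 0.05 and open points did not. Lines mark the medians of all genes (0.05), of fibroblast and progenitor markers (-0.95) and of adipocyte markers (-1.73); the Hox members lie on the authors' scale between -1.43 and -0.11, and adipocyte scaling gives 25 of the 27 members the opposite sign.

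The order of levels differed between the groups at a few places. Hoxc8 led in both. In KLF10AKO, Hoxc10 had rank 2, Hoxc6 rank 3 and Tbx15 rank 4 of the 27, whereas in WT Hoxc10 had rank 7, Hoxc6 rank 2 and Tbx15 rank 14. In WT, neighbours in the order overlapped from Hoxc9 down to Hoxa6, while Hoxc8 and Hoxc6 each stood clear of the next. The summed Hox level was 80.0, 74.0, 85.7 and 68.1 FPKM in KLF10AKO replicates 1 to 4, against 155, 155, 154 and 159 FPKM in WT replicates 1 to 4. These sums are on the authors' scale and depend on the scaling between libraries, whereas shares within a library do not. Of the sum, HoxD took 11.3% to 14.6% in KLF10AKO and 7.82% to 9.57% in WT. HoxA took 18.0% to 23.1% in KLF10AKO and 21.0% to 22.3% in WT, HoxB 18.0% to 23.6% in KLF10AKO and 18.1% to 21.9% in WT, and HoxC 40.2% to 51.1% in KLF10AKO and 48.1% to 51.8% in WT. HoxD was thus the cluster whose share did not overlap between groups.

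Ratios between members, chosen after their values were seen and given as a description, were also taken within each library. The ratio of Hoxd9 to Hoxa9 was 2.67, 2.92, 3.06 and 3.07 in KLF10AKO, against 1.16, 1.23, 0.922 and 1.01 in WT. For Hoxc8 to Hoxd8 it was 2.69, 1.93, 2.33 and 2.39 in KLF10AKO, against 4.01, 3.78, 4.34 and 4.33 in WT. In both ratios KLF10AKO replicate 4 stood with the other KLF10AKO libraries. Hoxc10 to Hoxc9 behaved otherwise, at 1.76, 1.63, 1.81 and 0.835 in KLF10AKO, against 0.786, 0.726, 0.834 and 0.842 in WT, replicate 4 lying within the WT range. The ratio of Tbx15 to Shox2 was 3.72, 3.69, 3.14 and 1.82 in KLF10AKO, against 0.855, 0.863, 0.841 and 1.15 in WT, with replicate 4 between the other KLF10AKO libraries and WT.

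**Figure D5:**
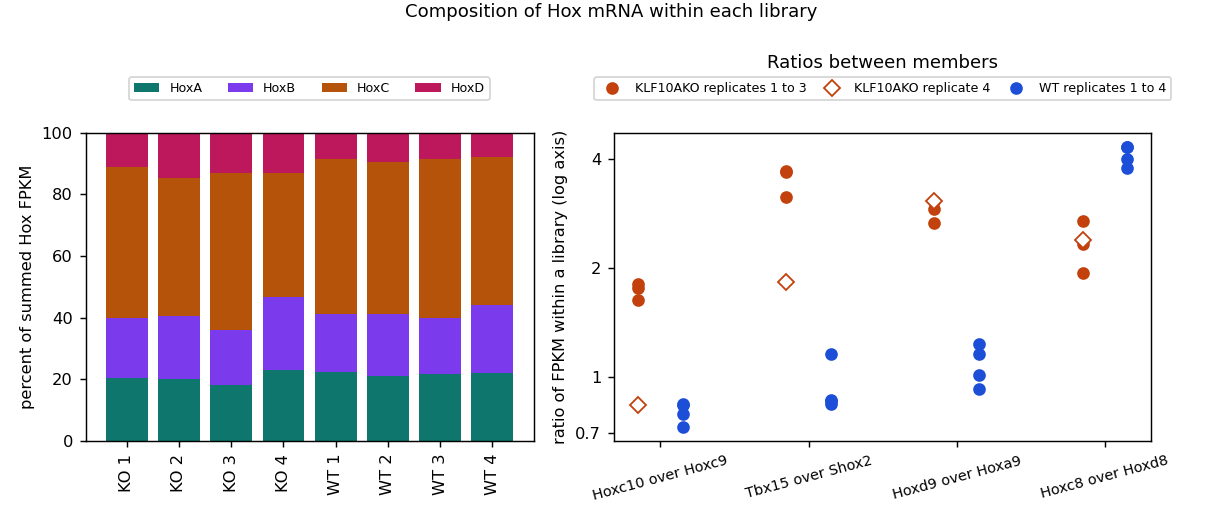
Left, the share of each cluster in the summed Hox FPKM of each library; HoxD runs from 11.3% to 14.6% in KLF10AKO and from 7.82% to 9.57% in WT. Right, 4 ratios of FPKM within a library on a log axis, in which KLF10AKO replicate 4 (open diamond) lies within the WT range for Hoxc10 over Hoxc9 and with the other KLF10AKO libraries for Hoxd9 over Hoxa9 and Hoxc8 over Hoxd8.

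The clusters also hold 46 rows that are not protein-coding Hox genes, of which 30 had reads and 11 were tested. On the authors' scale 5 of the 11 were lower, against the background of 34.9%, and 5 were not called, among them the antisense row Gm15050 (log2 change -0.66, adjusted p = 0.0605). Hotairm1, a long noncoding RNA of the HoxA cluster known from myeloid cells, was at 3.21 to 5.65 FPKM in KLF10AKO and 5.88 to 8.06 FPKM in WT (log2 change -0.74). Gm11536 (-1.32) and Hoxd3os1 (-0.93) were also lower. The other two, Hoxb5os (0.370 FPKM in KLF10AKO and 1.59 FPKM in WT on average) and Hoxb3os (0.269 FPKM in KLF10AKO and 0.758 FPKM in WT), reached the filter through WT alone, so their calls carry no weight. The hairpin Mir196a-1 in HoxB reached the filter through KLF10AKO alone, with 4, 5, 1 and 1 reads in KLF10AKO and 0 in WT, so no direction is read from it. In all, 19 members share exonic bases with another annotated gene, and among the tested members that share none, 13 of 16 were lower on the authors' scale (background 34.9%).

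Promoters are shown for a strongly lowered Hox gene, a Hox gene that did not pass and Shox2, since KLF10 belongs to a family known to bind GC and CACC boxes. Each runs from 250 bases before to 50 after the transcript start of RefSeq (GRCm38.p6); capitals mark GGGCGG (GC box), CACCC (CACC box), GTAAACA (FOXO site) or TGATTNAT (Pbx-Hox site) on either strand, where matches may overlap.
Hoxa10, chr6:52240805-52241104, minus strand: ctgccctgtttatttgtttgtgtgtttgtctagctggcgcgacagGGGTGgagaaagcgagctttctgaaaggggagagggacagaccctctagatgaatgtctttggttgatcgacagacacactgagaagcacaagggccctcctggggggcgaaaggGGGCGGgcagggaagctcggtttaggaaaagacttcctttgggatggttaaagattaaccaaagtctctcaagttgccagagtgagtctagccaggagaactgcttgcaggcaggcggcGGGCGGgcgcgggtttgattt
Hoxd9, chr2:74697513-74697812, plus strand: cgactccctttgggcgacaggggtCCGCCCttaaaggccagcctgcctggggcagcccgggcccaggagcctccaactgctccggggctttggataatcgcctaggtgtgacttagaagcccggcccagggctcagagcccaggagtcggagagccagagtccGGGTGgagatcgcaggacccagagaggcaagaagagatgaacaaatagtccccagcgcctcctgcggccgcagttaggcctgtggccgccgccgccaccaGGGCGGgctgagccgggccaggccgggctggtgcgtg
Shox2, chr3:66981722-66982021, minus strand: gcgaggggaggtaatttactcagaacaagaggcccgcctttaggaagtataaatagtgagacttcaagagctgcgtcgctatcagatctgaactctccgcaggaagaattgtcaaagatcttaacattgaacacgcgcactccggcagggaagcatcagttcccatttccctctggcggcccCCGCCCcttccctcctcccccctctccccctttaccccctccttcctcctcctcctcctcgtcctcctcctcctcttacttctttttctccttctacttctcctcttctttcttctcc
The Hoxa10 and Hoxd9 windows shown each held 2 GC boxes and 1 CACC box, and the Shox2 window held 1 GC box and 0 CACC boxes. A second Hoxa10 window, chr6:52234890-52235189 at another transcript start, is not shown. It held 0 GC boxes and 0 CACC boxes. Promoters were at hand for 25 of 45 member symbols (27 windows). Of these, 12 held GGGCGG (44.4%, against 35.7% of all 32851 windows), 17 held CACCC (63.0% against 57.5%), 0 held GTAAACA (0% against 3.65%) and 2 held TGATTNAT (7.41% against 3.221%). The homeodomain core TAAT was in 22 (81.5% against 58.0%). These are matches of letters and say nothing of binding.

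Partners and regulators of Hox proteins were taken from lists. Of 10 tested TALE homeodomain cofactors, which bind DNA beside Hox proteins, 6 were higher and 3 lower. Pbx4 (log2 change 2.19), Tgif1 (1.19) and Pknox1 (0.55) were among those higher. Among 23 Polycomb and trithorax regulators, which hold Hox clusters silent or active, 16 were higher and 2 lower. Kmt2a, the trithorax methyltransferase that keeps Hox genes on, was at 11.7 to 13.5 FPKM in KLF10AKO and 3.87 to 4.40 FPKM in WT (log2 change 1.52), and Cbx7 (1.70), Kmt2d (1.62) and Jarid2 (0.93) were also higher. Lymphocyte markers were higher in the same libraries, and their part in these values was not tested. Of 5 tested genes that set Hox territories in the embryo, Gdf11 (2.21), Rara (1.02) and Cyp26b1 (0.45) were higher and Zeb2 (-0.90) and Rarg (-0.32) lower. These counts are on the authors' scale, against the backgrounds of 34.9% lower and 39.4% higher. With adipocyte scaling the median log2 change was 1.94 for the cofactors, 1.89 for the chromatin regulators and 1.93 for the territory genes, against 0.41, 0.37 and 0.45 as deposited.

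Patterning genes outside the clusters were counted in the same way. Of 10 tested limb and body wall genes, 7 were lower and 1, Nr2f1 (0.58), was higher on the authors' scale (backgrounds 34.9% lower and 39.4% higher). The list's median of -0.57 became 0.59 with adipocyte scaling. Twist1, a mesenchymal helix-loop-helix factor, was at 7.87 to 8.98 FPKM in KLF10AKO and 22.6 to 27.1 FPKM in WT (log2 change -1.50), and Twist2 (-1.17) and Tbx18 (-0.95) were also lower. Most visceral marks were close to absent. Bnc1 and Tcf21 were at 0 in all libraries, and Wt1, Msln and Upk3b did not exceed 0.0425 FPKM in KLF10AKO or 0.0944 FPKM in WT. Of the 2 tested, Gata6 was lower on the authors' scale (-0.64). Brown and beige marks went both ways, 3 lower and 4 higher of 7 tested, beside the same backgrounds, and no shift of the list is read from this. Lhx8 (-1.74) and Ebf2 (-1.11) were lower, and Epsti1 (4.21) and Tnfrsf9 (1.61), which is also a receptor of activated T cells, were higher. Lymphocyte markers were higher in the same libraries, and their part in the Epsti1 and Tnfrsf9 values was not tested.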

How the data were processed

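Poly(A)-selected RNA of iWAT was sequenced in 4 KLF10AKO and 4 WT libraries. The deposited values are FPKM per gene, made by the authors, and the deposited table also gives each gene's length and coordinates. HISAT2 2.0.5, featureCounts 1.5.0-p3, edgeR 3.22.5 and mm10 are named in the submitters' processing notes, with no role or order. FPKM times length was a whole multiple of 1 step per library for 100% of values (tolerance 0.01 read), which gave the reads quoted. Their totals were 0.901 to 0.939 of the size that this step implies in KLF10AKO and 1.05 to 1.09 in WT, so the authors' sizes had been scaled.

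The 2 groups entered limma 3.58.1 (R 4.3.3; lmFit, eBayes with trend) on log2(FPKM + 0.5), over 16012 genes with a mean of at least 0.5 FPKM over the 8 libraries, two-sided, with Benjamini-Hochberg adjustment over all of them and a threshold of 0.05. The log2 scale with a pseudocount understates changes of low genes. The procedure was tested on simulated data. All fold changes are KLF10AKO over WT. Floors for rows with 0 reads use 3 reads over a group's 4 libraries and cover counting error only. Gene models came from GENCODE M21, which held 99.9% of the identifiers, 98.3% of them at the same coordinates. Alternatives were other pseudocounts and filters, TPM, quantile normalization, scaling to adipocyte or to fibroblast and progenitor markers, a replicate block, each library left out, and KLF10AKO replicate 4 alone against WT; voom on recovered reads was added after seeing the data. A tested member and a listed cofactor stay in the fits and counts but are not reported here individually. The other members are accounted for, values per library being given where a result turns on the member, and up to 4 genes of lowest p are named per list; Cyp26b1 and the visceral marks near 0 were named after their values were seen. The members and lists were chosen with earlier results of these data known.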

Additional observations from a re-analysis of the deposited data

Results flagged for a closer look

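In 6 of 52 groups of 4 libraries (26 tested members in KLF10AKO and in WT), a single library stood apart from the other 3 by more than Dixon's limit at the 95% level, where chance flags about 1 in 20 groups. In KLF10AKO these were Hoxa9, lowest in replicate 4 at 1.21 FPKM; Hoxb3, highest in replicate 3 at 0.739 FPKM; and Hoxb5, highest in replicate 2 at 1.66 FPKM. In WT, Hoxc5 was lowest in replicate 2 at 5.31 FPKM and Hoxc10 was lowest in the same library at 7.06 FPKM. Hoxa3 was lowest in WT replicate 3 at 0.909 FPKM, the library without which its log2 change of -0.48 passed the threshold. The KLF10AKO values of Hoxc10 and Tbx15, spread over 3.0 to 10.2 FPKM and 2.40 to 8.43 FPKM, were not among them.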

How the results depend on the processing

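Counts of lower and higher calls moved most with the scaling to adipocyte markers, which gave 13903 higher and 224 lower genes of 16012, and 17 higher and 0 lower members. Under it 25 members changed sign, among them Hoxc8 (0.15), Hoxc6 (0.50), Hoxc10 (1.25), Hoxd8 (0.94), Hoxc9 (0.43), Hoxa7 (0.53), Hoxa10 (0.17), Hoxb4 (0.81), Hoxb6 (0.56), Hoxb7 (0.62), Hoxc5 (0.19), Hoxa5 (0.94), Hoxd9 (1.38), Hoxb8 (0.47), Hoxc4 (0.73), Hoxa9 (0.036), Hoxb5 (0.28), Hoxa6 (0.25), Hoxa4 (0.15), Hoxa3 (0.89), Hoxa2 (0.47), En1 (0.93), Hoxb9 (0.64) and Hoxb3 (0.44). By construction this scaling sets the mean of the adipocyte markers equal in all libraries. Fibroblast and progenitor scaling left 3135 genes lower and made 1 member higher, with the sign changed for Hoxc10 (0.17), Hoxd9 (0.32) and En1 (0.10). The median of all genes was 0.25 with TPM, -0.16 with quantile normalization, 0.47 with fibroblast and progenitor scaling and 0.27 with voom, against 0.05 as reported. Single sign changes were Hoxd9 with TPM (0.078) and with voom (0.092), and Tbx15 with quantile normalization (-0.15) and with KLF10AKO replicate 4 alone against WT (-0.92). Leaving out each library in turn gave 5991 to 6269 higher and 5307 to 5593 lower genes, and 21 to 22 lower and 0 to 1 higher members; Tbx15 ran from -0.14 to 0.40 and Hoxc10 from -0.49 to 0.045, and the cause was not tested. Whether the replicate numbers pair the libraries is not stated. Same-number correlations of deviations were 0.003 to 0.031. KLF10AKO replicates 1, 3 and 4 correlated best with the WT library of their own number, and replicate 2 with WT replicate 1 (0.0112). Correlations this small cannot decide the pairing. With the replicate numbers as a block 6220 genes were higher and 5506 lower, and 21 members lower and 0 higher, Hoxb9 losing its call. The planned edgeR and DESeq2 fits were not run, since the deposited values are FPKM. The 19 members under 0.5 FPKM held 0 to 134 reads a group, and their differences were not tested.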
